A study of Sus scrofa with 16 samples.

Results

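HSD3B1 and 7 other genes that convert or conjugate steroids were examined in the liver of pigs from 2 lines selected on residual feed intake (RFI), the feed eaten beyond what growth and maintenance account for. The members were all array probes named for HSD3B1, HSD11B1, HSD17B2, SULT1A1, SULT2A1, SULT2B1, SRD5A1 or SRD5A2. Of the 8 genes, 5 had a probe on the array (14 probes of 43603), and 4 of them (12 probes) were bright enough to be tested. No probe carried the name of HSD17B2, SULT2B1 or SRD5A1. The 2 probes of SRD5A2 bear an older name on the array and were assigned through their RefSeq accession. HSD3B1 was chosen because it stood high among the named genes by its difference between these same pigs, so its line difference is given as a description without a test. The other 7 genes were chosen by function.

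Hepatocytes receive steroids made in the adrenal and gonad, oxidise or reduce them, and attach sulfate or glucuronic acid so that they can leave in bile and urine. The hydroxysteroid dehydrogenases decide whether a hormone is active or inactive: HSD3B1 turns delta-5 hydroxysteroids into delta-4 ketosteroids, and HSD11B1 regenerates cortisol from cortisone inside the cell. In pig liver a 3-beta-hydroxysteroid dehydrogenase also reduces androstenone, the testicular pheromone that contributes to boar taint, and hydroxysteroid sulfotransferases conjugate the products.

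The low-RFI group (line RFIneg, 8 pigs) and the high-RFI group (line RFIpl, 8 pigs) shared species, tissue and feeding: all were Sus scrofa at 20 kg body weight with free access to feed, and frozen liver was taken from each. Sex and age were not given in the sources used here. Total RNA of each pig was labelled with Cy3 and hybridised to 1 single-colour Agilent porcine array, so each value below comes from 1 animal. Levels are log2 processed signals minus the 75th percentile of the array, so that a level of 0 is the brightness of that percentile. Levels of different probes cannot be compared with each other.

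The 16 arrays were alike in brightness, with a 75th percentile of 320 to 508 intensity units over a local background of 29 to 40, and the number of arrays limits the precision. Each of 4 slides held 2 low-RFI and 2 high-RFI pigs, and each of 2 series of sample numbers held 4 of each line. All 7 hepatocyte markers on the array were well above background on all 16 arrays. Of 7 markers of adrenal cortex and gonad on the array, 2 (CYP11A1 and CYP21A2) were well above background on all 16 arrays, while MC2R, the corticotropin receptor, was so on 0. Each array measured bulk liver, in which fewer cells of a type and less RNA per cell cannot be told apart.

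HSD3B1 was read by 2 probes that shared no run of bases longer than 6. Their sequences are shown because the description of HSD3B1 rests on them, and the capitals mark the longest exact run, 23 bases, that the first shares with a probe under another name in the opposite orientation. With 1 mismatch allowed, that match extends to 43 of 44 bases.
A_72_P108371: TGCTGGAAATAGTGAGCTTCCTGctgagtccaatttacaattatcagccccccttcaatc
A_72_P197232: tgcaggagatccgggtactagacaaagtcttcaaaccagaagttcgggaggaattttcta

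HSD3B1 was higher in most low-RFI livers than in any high-RFI liver. The probe A_72_P108371 had levels of -0.25 at lowest, 1.26 at the median and 1.63 at highest in the 8 low-RFI pigs, against -0.04, 0.22 and 0.49 in the 8 high-RFI pigs. In 7 of 8 low-RFI pigs the level lay above that of every high-RFI pig, and the remaining one, low-RFI pig 2, lay below them all. Before scaling between arrays, its intensity ran over 357 to 1268 in the livers of low-RFI pigs and 377 to 693 in those of high-RFI pigs, each above the local background. The means were 1.03 ± 0.61 in low-RFI and 0.21 ± 0.20 in high-RFI livers (SD, n = 8 each), a difference of 0.82 (SE 0.215) or 1.77-fold. The low-RFI line was thus also the more variable, and without pig 2 its lowest pig stood at 0.70.

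The probe A_72_P197232 gave the same picture at a lower brightness. Its levels were -2.48, -0.44 and 0.08 (lowest, median and highest) in low-RFI livers and -1.87, -1.66 and -0.82 in high-RFI livers. Here 5 of 8 low-RFI pigs lay above all high-RFI pigs, and low-RFI pig 2 was again the lowest of all 16. The difference was 0.81 (SE 0.284), or 1.75-fold. After the line means were removed, the levels of the 2 probes rose and fell together over the 16 pigs (Pearson r = 0.915, Spearman rho = 0.826, permutation p adjusted over 18 pairs of probes 0.000556 and 0.00168). The pig that departed most from this relation was high-RFI pig 6, which was at -0.82 on the second probe and 0.25 on the first.

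**Figure D1:**
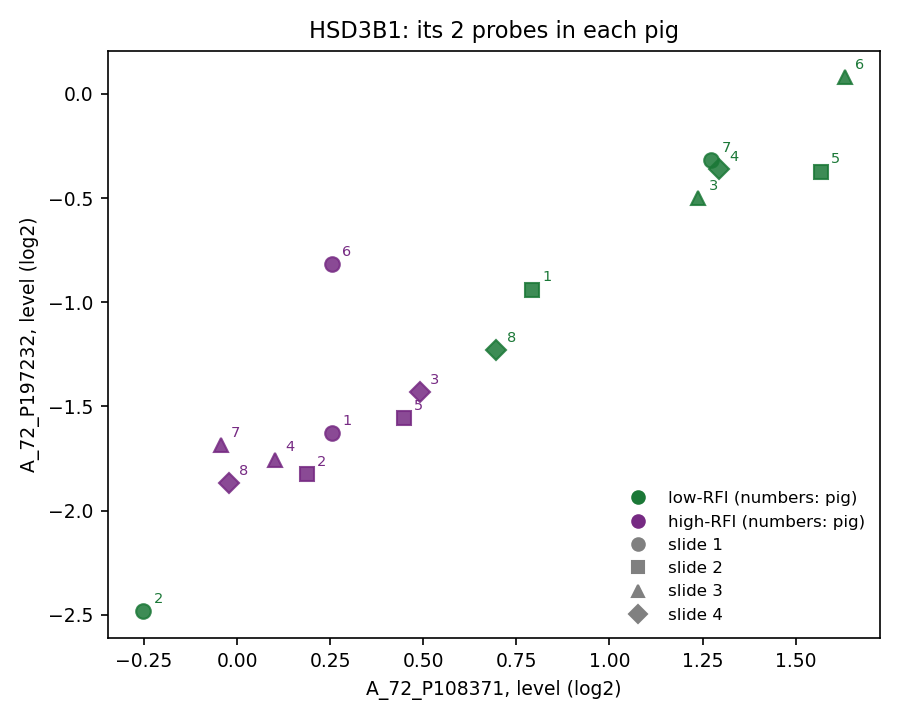
Level of HSD3B1 in each pig by its 2 probes, A_72_P108371 on the horizontal axis and A_72_P197232 on the vertical axis (log2, relative to the 75th percentile of the array); green, low-RFI; purple, high-RFI; symbols mark slides and numbers mark pigs. Low-RFI pigs other than pig 2 fill the upper right, and low-RFI pig 2 is the lowest on both axes.

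The size of the HSD3B1 difference varied between slides, each with 2 pigs of each line. For A_72_P108371 it was 0.26 on slide 1, 0.86 on slide 2, 1.41 on slide 3 and 0.76 on slide 4. For A_72_P197232 it was -0.18, 1.04, 1.51 and 0.85 on slides 1 to 4. Slide 1 carried low-RFI pig 2, and without that pig the difference over all slides was 1.004 for A_72_P108371. Within the first series of sample numbers the difference of A_72_P108371 was 0.51, and within the second it was 1.13.

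HSD11B1, which keeps cortisol active in liver, had 6 probes and showed no difference that passed the test on any of them. The brightest probe, A_72_P035496, had levels of 7.23, 7.63 and 7.78 (lowest, median and highest) in low-RFI livers and 7.29, 7.55 and 7.68 in high-RFI livers. The lines overlapped over nearly their whole range. The difference was 0.06 (95% interval -0.14 to 0.26, limma adjusted p = 0.997 over all tested probes), and its sign turned (-0.0128) when the background was corrected by normexp. It was -0.13, 0.03, 0.30 and 0.03 on slides 1 to 4.

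The 5 further probes of HSD11B1 differed by 0.07 to 0.24 between the lines, with adjusted p between 0.979 and 0.998. The brightest probe was also a steady one: the within-line SD of A_72_P035496, 0.15, lay at percentile 4.41 of all tested probes, whose median was 0.33. The other 5 probes did not share this, with SDs of 0.24 to 0.37 at percentiles 26.6 to 59.6. On the array of low-RFI pig 7 the median coefficient of variation of replicated probes was 8.77%, the highest of the 16. That pig had the lowest HSD11B1 level of its line on 5 of 6 probes, the exception being A_72_P649421. That probe also stood apart in its relation to the others, with r of 0.222 to 0.398 within the lines over the 16 pigs, whereas the 10 pairs among the other 5 probes had r of 0.776 to 0.968.

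The probes A_72_P545172 and A_72_P607268 are shown because they share 17 bases, marked by the capitals, and so are not fully separate readings. Their r was 0.963, while A_72_P006061 and A_72_P543418, with no shared run longer than 6 bases, had an r of 0.965.
A_72_P545172: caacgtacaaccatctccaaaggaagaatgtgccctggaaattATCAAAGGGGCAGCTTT
A_72_P607268: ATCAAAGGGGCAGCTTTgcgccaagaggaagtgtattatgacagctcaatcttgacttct

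SRD5A2, the steroid reductase that makes dihydrotestosterone in androgen target tissues, was not well above background in any liver. Its probe A_72_P443114 read 1.69 to 3.80 intensity units in low-RFI livers and 1.80 to 4.57 units in high-RFI livers, and A_72_P302914 read 1.77 to 6.07 units in low-RFI livers and 2.097 to 5.24 units in high-RFI livers. Values at background have no order, so no line difference is given for either probe.

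SULT2A1, the hydroxysteroid sulfotransferase that conjugates dehydroepiandrosterone and related alcohols, did not pass the test. Its brighter probe, A_72_P165406, had levels of 7.08, 7.31 and 8.04 (lowest, median and highest) in low-RFI livers and 6.49, 7.33 and 7.84 in high-RFI livers. The medians were nearly equal, and the low-RFI line had the 2 highest pigs while the high-RFI line had the 2 lowest. The difference was 0.24 (95% interval -0.18 to 0.65, limma adjusted p = 0.979). It was 0.28, 0.49 and 0.48 on slides 1 to 3 but -0.30 on slide 4, and it was 0.57 within the first series of sample numbers but -0.10 within the second.

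The other SULT2A1 probe, A_72_P459255, differed by 0.33 (95% interval -0.28 to 0.94, adjusted p = 0.979). Both probes followed the same pigs (r = 0.946 and rho = 0.941 within the lines), though they shared no run longer than 7 bases. SULT2A1 varied widely among pigs of a line, its levels on A_72_P459255 spanning 4.01-fold over the 16 livers. The sequence of A_72_P459255 is shown as an example. Both SULT2A1 probes were well above background on all 16 arrays, and the brighter A_72_P165406 represents the gene elsewhere.
A_72_P459255: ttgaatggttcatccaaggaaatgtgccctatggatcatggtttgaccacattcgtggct

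SULT1A1, a sulfotransferase of phenols that also accepts estrogens, was the only tested gene of the 4 with a lower mean in low-RFI livers, and the difference did not pass the test. RefSeq lists the accession of its probes under SULT1A3 with SULT1A1 as a synonym, so signal from close copies of the gene cannot be told apart. The brighter probe, A_72_P517960, had levels of 5.09, 5.83 and 6.90 (lowest, median and highest) in low-RFI livers and 5.24, 6.20 and 7.06 in high-RFI livers. Pigs of both lines were spread over the same range. The difference was -0.29 (95% interval -0.90 to 0.33, limma adjusted p = 0.979), and it was -0.22, 0.64, -1.18 and -0.38 on slides 1 to 4. It was -0.10 within the first series of sample numbers and -0.47 within the second.

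The second SULT1A1 probe, A_72_P223957, which shares 18 bases with the first, differed by -0.25 (adjusted p = 0.979). The within-line SD was 0.64 for A_72_P517960 and 0.54 for A_72_P223957, at percentiles 90.4 and 83.8 of all tested probes. The line difference of SULT1A1 was under that spread on both probes.

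Of the 10 tested probes of HSD11B1, SULT1A1 and SULT2A1, 0 passed an adjusted p of 0.05 by limma, where 0.00997% of all 30097 tested probes did (3 probes), and 0 had an unadjusted p under 0.05, where 5.45% of all did. On average 8 of them were higher and 2 lower in low-RFI livers, and 49.7% of all tested probes were higher. The 8 were the probes of HSD11B1 and SULT2A1 and the 2 those of SULT1A1, so they repeat readings of 3 genes. By gene, HSD11B1 and SULT2A1 were higher and SULT1A1 lower, where 54.4% of all named genes were higher. Of the 12 tested probes with HSD3B1 included, 0 separated the lines without overlap, where 0.0432% of all did.

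**Figure D2:**
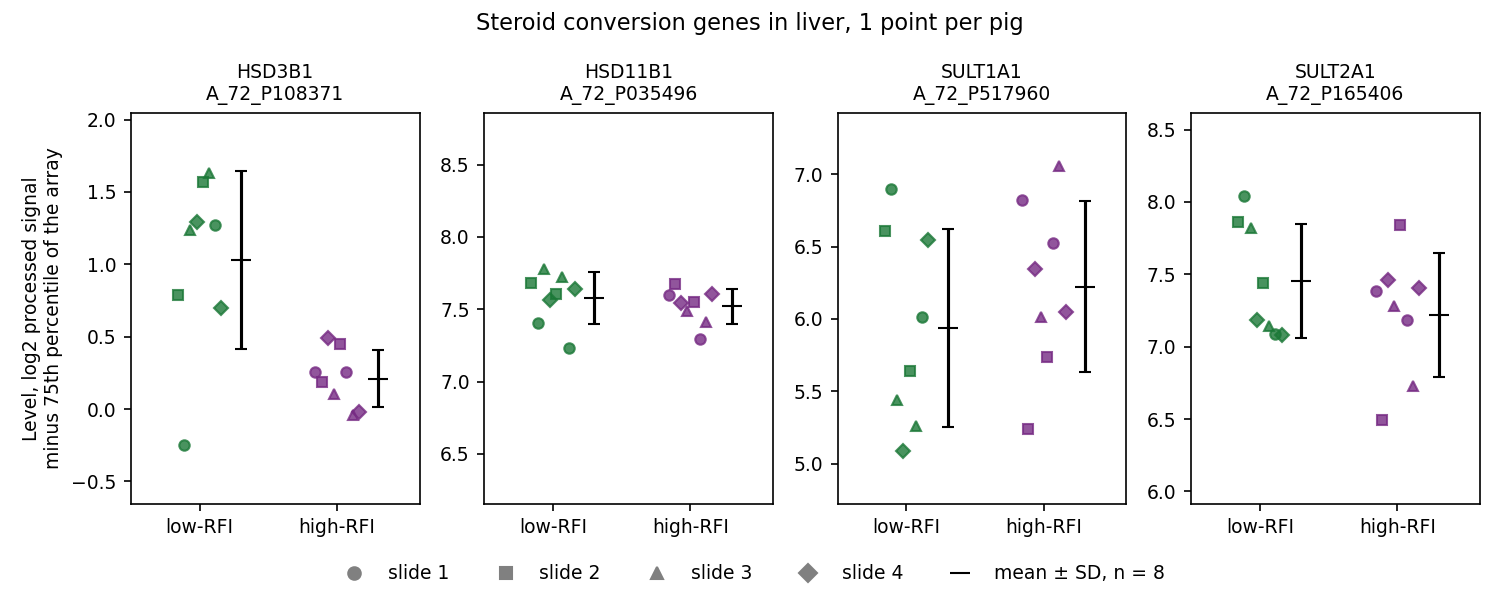
Level of the brightest probe of each tested gene (log2, relative to the 75th percentile of the array), 1 point per pig, low-RFI left and high-RFI right in each panel, symbols by slide, bars the mean and SD (n = 8). All panels span the same number of log2 units; HSD3B1 is raised in 7 of 8 low-RFI pigs, the HSD11B1 probe shown varies least, and the sulfotransferases vary widely in both lines.

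**Figure D3:**
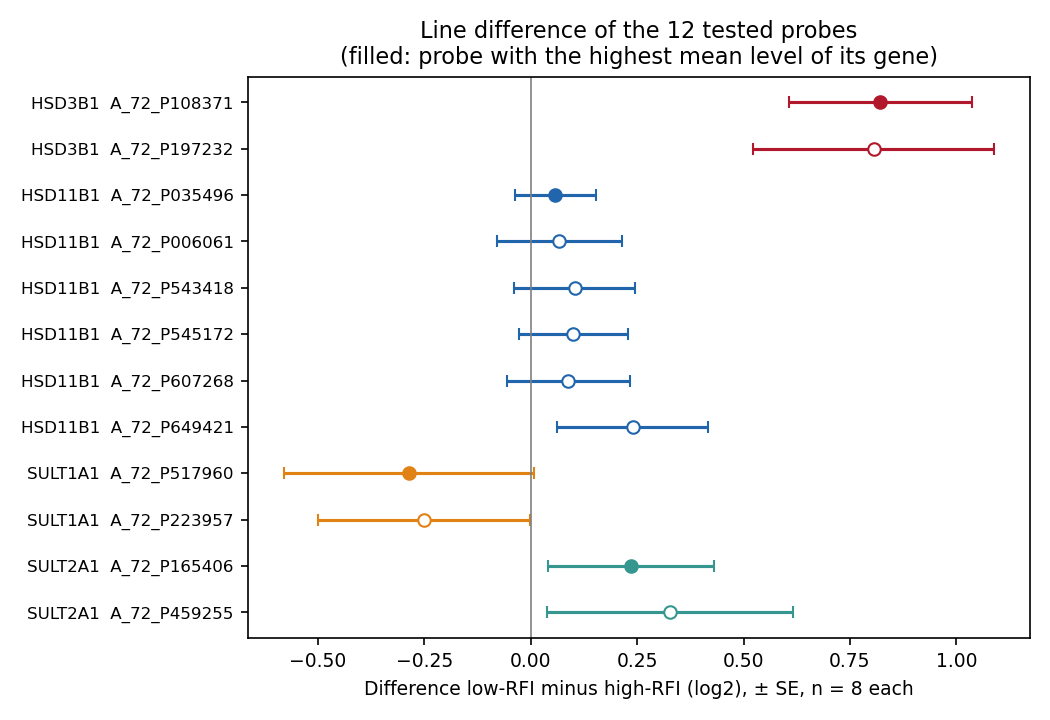
Difference between the lines (low-RFI minus high-RFI, log2) for the 12 tested probes with their SE (n = 8 each); filled points are the brightest probe of a gene. Both HSD3B1 probes stand near 0.8, all HSD11B1 and SULT2A1 probes between 0.06 and 0.33, and both SULT1A1 probes below 0.

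Relations among the 4 genes were examined after the mean of each line was removed, so that the line difference played no part. Among 6 pairs, HSD3B1 and SULT1A1 had the strongest relation, and it was negative. Pearson r was -0.647 (permutation p = 0.00505, adjusted 0.0303) and Spearman rho was -0.65 (permutation p = 0.0141, adjusted 0.0844) over 16 pigs. For scale, the absolute r of HSD3B1 with 4039 named genes had a median of 0.225 and a 90th percentile of 0.52.

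The relation rested in part on low-RFI pig 2, whose HSD3B1 level deviated by -1.28 from its line mean while its SULT1A1 level deviated by 0.96. Without that pig r was -0.561 (adjusted permutation p = 0.232). The loss was not limited to pig 2, since no pair passed without low-RFI pig 1 either. Of 23 alternatives, 9 kept the result for HSD3B1 with SULT1A1, though its sign did not turn in any. Without low-RFI pigs 2 and 6, the farthest from the median of HSD3B1, r was -0.511 (permutation p = 0.0786), so the relation no longer passed. It was -0.622 within the first series of sample numbers (exact permutation p = 0.146, n = 8) and -0.792 within the second (exact permutation p = 0.0312, adjusted 0.0938, n = 8), so neither series passed after adjustment. With slide means removed as well it was -0.589 (permutation p = 0.0281, adjusted 0.168). Within low-RFI pigs r was -0.842 and within high-RFI pigs -0.205, a difference between the lines that was not tested.

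**Figure D4:**
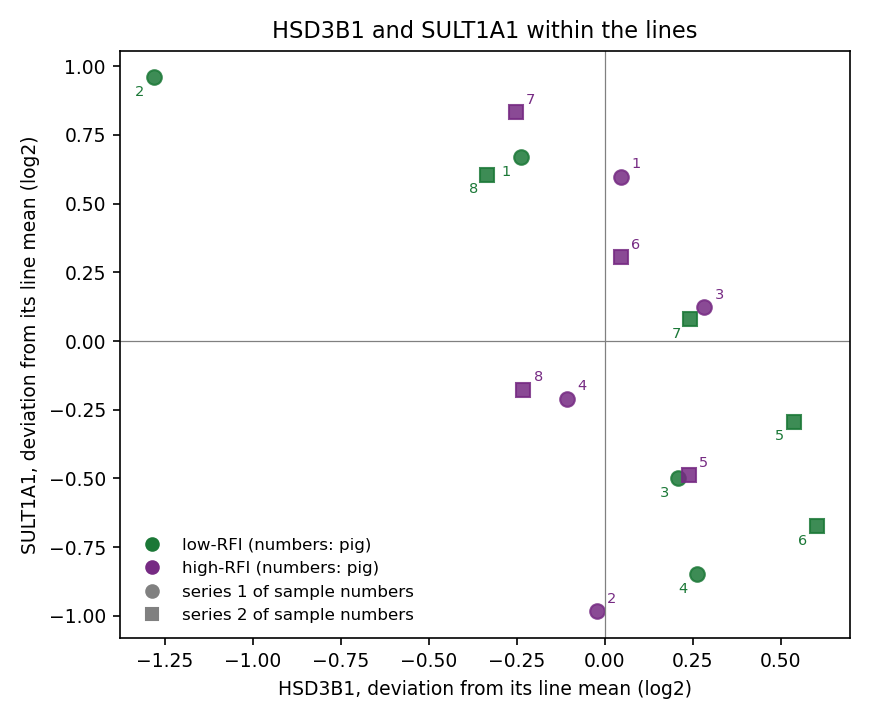
Deviation of each pig from its line mean for HSD3B1 (horizontal, log2) and SULT1A1 (vertical, log2), low-RFI green and high-RFI purple, circles and squares for the first and the second series of sample numbers. Low-RFI pig 2 lies alone at the upper left, at -1.28 and 0.96.

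The sulfotransferases SULT1A1 and SULT2A1 had no relation that passed over all pigs (r = 0.249, permutation p = 0.362, adjusted 0.51). Within the first series of sample numbers r was 0.833 (exact permutation p = 0.00521, n = 8), and within the second it was -0.772 (exact permutation p = 0.0312, n = 8). Adjusted over 6 pairs these exact p were 0.0312 in the first series, which passed, and 0.0938 in the second, which did not. The change of sign between the series was not itself tested. The remaining 4 pairs had r between -0.412 and 0.259 with adjusted permutation p of 0.416 or more. No pair passed in every one of the 16 repeats that left out 1 pig.

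The named genes whose levels were most like those of HSD3B1 over the 16 pigs were GLB1L (r = 0.893), PARPBP (0.814), NCR3 (0.811), RIIAD1 (0.80) and APOA1 (0.778), out of 4036 named genes. These values are a description, since all levels come from the same arrays and include the line difference. With the line means removed r was 0.798 for GLB1L, a beta-galactosidase-like protein, 0.67 for PARPBP, a regulator of homologous recombination, and 0.762 for NCR3, an activating receptor of natural killer cells. It was 0.843 for RIIAD1 and 0.684 for APOA1, the main protein of high-density lipoprotein. Without low-RFI pig 2 the values over the remaining pigs were 0.747 to 0.884.

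GLB1L had a mean level of 2.33 ± 0.46 in low-RFI and 1.73 ± 0.14 in high-RFI livers (SD, n = 8 each). As with HSD3B1, the low-RFI line was the more variable. APOA1 averaged 8.45 ± 0.19 in low-RFI and 8.29 ± 0.09 in high-RFI livers. It belongs to the hepatocyte markers, all 7 of which were higher on average in low-RFI livers by a median of 0.10, with 0 passing by limma. The summed linear level of those markers was 2497 to 3281 in low-RFI livers and 2246 to 2980 in high-RFI livers (multiples of the 75th percentile). Of 7 markers of T and NK cells, the cell type of NCR3, 6 were higher on average in low-RFI livers (median 0.27), with 0 passing. Of all named genes 54.4% were higher on average. By line medians, CD3E, CD3G and LCK were higher in low-RFI livers, while CD3D, CD2, CD8A and GZMB were lower. The T and NK cell markers summed to 1.37 to 6.38 in low-RFI livers and 1.95 to 5.86 in high-RFI livers. Such sums weigh the brightest probes most, here GZMB, with mean log2 levels of 0.47 in low-RFI and 0.51 in high-RFI livers. The other T and NK cell markers averaged -1.75 or less in both lines. The 3 tested adrenal and gonad markers summed to 0.159 to 0.262 in low-RFI livers and 0.167 to 0.295 in high-RFI livers. The part of these cell types in the HSD3B1 difference was not tested.

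Other genes of steroid handling were listed by function, 116 in 9 lists, and 50 of them were tested. By limma 0 of 50 passed an adjusted p of 0.05, as 0% of all 4050 named genes did. At an unadjusted p under 0.05 there were 3, or 6% against 4.96% of all named genes. Of these 2 were higher and 1 lower, where 2.49% of all named genes were higher and 2.47% lower by the same measure. On average 30 were higher and 20 lower in low-RFI livers, where 54.4% of all named genes were higher, with a median difference of 0.08 against 0.02 over all named genes. As a group the 50 tested genes therefore stood near the background of the array.

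Of 6 tested hydroxysteroid dehydrogenases beyond the members, 4 were higher and 2 lower on average (median 0.15), and 0 passed. HSD17B1, which reduces estrone to estradiol, had the smallest p among them. Its levels were 3.05, 3.45 and 3.86 (lowest, median and highest) in low-RFI livers and 2.84, 2.997 and 3.28 in high-RFI livers. All 8 low-RFI pigs lay above the high-RFI mean, though the lines overlapped. The difference was 0.45 (SE 0.121, limma adjusted p = 0.462). HSD11B2, which inactivates cortisol in kidney, differed by -0.28 (adjusted p = 0.967).

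The 3 tested aldo-keto reductases were all higher on average in low-RFI livers, with a median difference of 0.52, and 0 passed. AKR1C4, which reduces ketosteroids in human liver, averaged 5.08 ± 0.60 in low-RFI and 4.51 ± 0.64 in high-RFI livers (SD, n = 8 each), a difference of 0.58 (limma adjusted p = 0.941). AKR1CL1 differed by 0.52 and AKR1C1 by 0.25. Close copies within this family may share signal.

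Among conjugating genes, SULT1E1, the estrogen sulfotransferase, averaged 3.98 ± 0.54 in low-RFI and 3.53 ± 0.44 in high-RFI livers, a difference of 0.45 (limma adjusted p = 0.945). STS, which removes sulfate from steroids, had a probe too dim to be tested. Of 14 listed sulfation and desulfation genes beyond the members, only these 2 had a probe under their name. UGP2, which makes UDP-glucose for glucuronidation, differed by 0.11 (adjusted p = 0.979). It was the only 1 of 12 listed glucuronidation genes with a probe under its name. No listed glucuronosyltransferase was therefore measured.

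Among the genes of adrenal and gonadal steroid synthesis 0 passed, and likeness of the lines was not tested. Of 10 with a probe, 4 (CYP17A1, MC2R, NR5A1 and LHCGR) were too dim to be tested, 2 were higher and 4 lower on average, and the median difference was -0.06. FDX1, the electron carrier of mitochondrial steroid hydroxylases, had the smallest p, with a difference of 0.23 (limma adjusted p = 0.977). CYP11A1, the side-chain cleavage enzyme that starts steroid synthesis, averaged -3.69 in low-RFI livers and -3.62 in high-RFI livers.

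Genes of glucocorticoid action were higher on average in 6 of 8 cases (median 0.10), where 54.4% of all named genes were higher, and 0 passed. The 6 include NR3C2, which differed by only 0.004 (SE 0.424). FKBP5, a chaperone partner of the glucocorticoid receptor and one of its targets, had levels of 0.01, 0.34 and 1.05 (lowest, median and highest) in low-RFI livers and -0.93, -0.19 and 0.66 in high-RFI livers. All 8 low-RFI pigs lay above the high-RFI mean. The difference was 0.59 (SE 0.212, limma adjusted p = 0.708). The receptor NR3C1 differed by -0.05, the corticosteroid-binding globulin SERPINA6 by 0.42, the gluconeogenic target PCK1 by 0.15 and the listed gene MT1A by -0.04.

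Receptors and carriers of sex steroids were evenly divided, 2 higher and 2 lower, with PGRMC2, a heme-binding membrane protein, at 0.20 (limma adjusted p = 0.979). Among 10 electron donors and P450 enzymes, 5 were higher and 5 lower. CYP3A29, a pig member of the family that hydroxylates testosterone, had levels of 5.08, 5.43 and 5.74 in low-RFI livers and 5.26, 5.93 and 6.27 in high-RFI livers (lowest, median and highest). All 8 low-RFI values were under the mean of high-RFI pigs. The difference was -0.48 (SE 0.142, limma adjusted p = 0.521). Of 11 liver regulators 6 were higher and 5 lower, with NR0B2, the corepressor known as small heterodimer partner, at 0.66 (SE 0.322, adjusted p = 0.935).

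**Figure D5:**
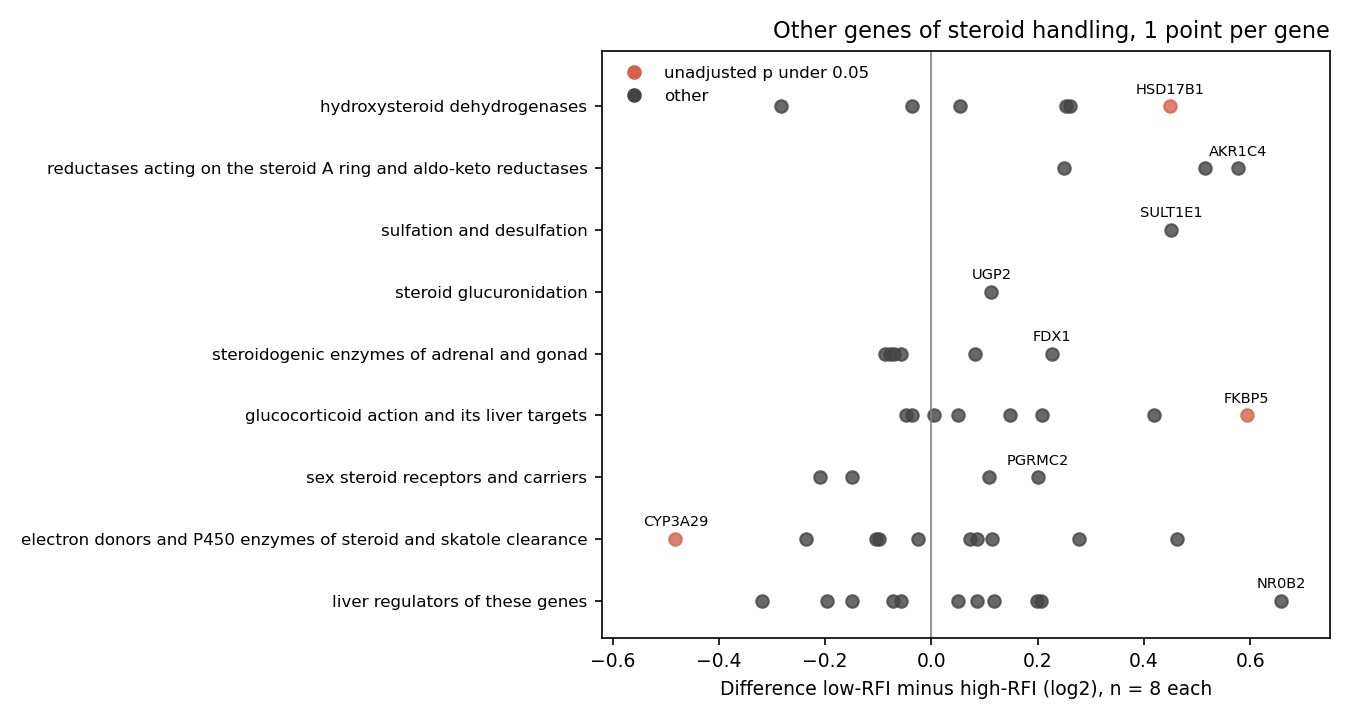
Difference between the lines (low-RFI minus high-RFI, log2, n = 8 each) for the 50 tested genes of 9 steroid handling lists, 1 point per gene; red points have an unadjusted p under 0.05, and the gene with the smallest p of each list is named. HSD17B1, FKBP5 and CYP3A29 are the 3 red points, and points lie on both sides of 0 in most lists.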

How the data were processed

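Per the file headers, Agilent Feature Extraction 10.7.3.1 (protocol GE1_107_Sep09) produced the values of 16 single-colour arrays. Per the file headers, the processed signal is an intensity after background subtraction, on a linear scale and not scaled between arrays. The authors' deposited table holds log2 values of 27938 spots. They equal the log2 processed signal minus the median of these same spots on each array. The sources used here do not give their rule for keeping spots. The submitters' processing notes name R 2.10.0. No genome build is named in the files.

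Control spots and spots marked as outliers were left out, spots of 1 probe were averaged, and log2 signals were centred on the 75th percentile of each array. Probes well above background on at least 8 arrays were tested (30097 of 43603). The lines were compared with limma 3.58.1 (R 4.3.3) and Benjamini-Hochberg adjustment over all tested probes at 0.05; the procedure was tested on simulated data. Each gene is represented by the brightest of its tested probes. Of 5779 RefSeq accessions on probes, 5461 matched the RefSeq gene table of assembly Sscrofa11.1, used for names only. Probe sequences come from the deposited scans. Relations used 100000 permutations of pigs within lines, or all 576 within a series of sample numbers, 2-sided.

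Named genes were every probe of the members, the gene with the smallest p of each list, since no list had a gene past the threshold, and the 5 genes most like HSD3B1. HSD11B2, AKR1CL1, AKR1C1, CYP11A1, NR3C1, NR3C2, SERPINA6, PCK1, MT1A and the markers were named after their values were seen. The members and lists were chosen with earlier results of these data known. Alternatives covered background correction, scaling, the authors' table, the filter on dim probes, outlier spots, slide, series, replicate number, array noise, variance model, array weights, the probe of a gene and each pig left out in turn.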

Additional observations from a re-analysis of the deposited data

Results flagged for a closer look

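In high-RFI pig 6, HSD3B1 was at -0.82 on the probe A_72_P197232, while the other 7 high-RFI pigs lay between -1.87 and -1.43. In low-RFI pig 7, HSD11B1 was at 5.41 on A_72_P607268, while the other 7 low-RFI pigs lay between 5.93 and 6.27. Each gap to the nearest pig, as a share of the range of its line (0.584 and 0.603), exceeded Dixon's 95% critical value for 8 samples. Chance marks about 1 in 20 groups, and 2 of 24 groups were marked here. The HSD3B1 value was not repeated by A_72_P108371, on which high-RFI pig 6 was at 0.25 within a line range of -0.04 to 0.49. The array of that pig also had the most spots well above background, 35126, against at most 31942 on the other 15 arrays.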

How the results depend on the processing

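Under every alternative, 0 of the probes standing for HSD11B1, SULT1A1 and SULT2A1 and 0 of the 50 listed steroid genes passed. The HSD3B1 difference of A_72_P108371 stayed above 0. This is a description and no support, since HSD3B1 was chosen by its difference between these same pigs. The HSD3B1 difference of A_72_P197232, followed only within slides and series, was -0.18 on slide 1. The count over all probes (3) was 1 when probes had to be well above background on all 16 arrays, 7 with array weights, 1 and 0 in the first and second series of sample numbers, and 0 on slides 1, 3 and 4. It was 2 to 5 with a pig left out (5 without low-RFI pig 2 or high-RFI pig 4). HSD3B1 was at 0.26 on slide 1 and 1.41 on slide 3, and at 0.735 to 1.004 with a pig left out. The cause of these moves was not tested, though a slide or series holds fewer pigs.

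The sign turned for HSD11B1 (-0.0128 under normexp, -0.13 on slide 1), SULT1E1 (-0.0149 on slide 1), SULT1A1 (0.64 on slide 2) and PGRMC2 (-0.18 on slide 2). It also turned for UGP2 (-0.0398 on slide 3), FDX1 (-0.0400 on slide 3) and SULT2A1 (-0.30 on slide 4, -0.10 in the second series).

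HSD17B1 (0.26 to 0.67), FKBP5 (0.25 to 0.88) and CYP3A29 (-0.79 to -0.21) kept their sign under all 37 alternatives. So did AKR1C4 (0.32 to 1.02) and NR0B2 (0.21 to 0.95). The alternatives reuse the same pigs, so a kept sign is a description and no further test.

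The count of related pairs (1) was 0 under cyclic loess, under normexp and with slide means removed. It was also 0 in the second series and without the 2 extreme pigs, and 0 to 1 with a pig left out. The count stayed at 1 in 10 of 23 alternatives. Signs turned for HSD11B1 with SULT1A1 (r = 0.0408 under normexp) and HSD11B1 with SULT2A1 (-0.294 in the first series, -0.152 without the extreme pigs, -0.111 to 0.277 with a pig left out). They turned for HSD3B1 with SULT2A1 (0.504 in the second series, 0.221 without the extreme pigs, -0.366 to 0.116 with a pig left out). They turned for SULT1A1 with SULT2A1 (-0.772 in the second series, -0.247 without the extreme pigs) and HSD3B1 with HSD11B1 (-0.137 without the extreme pigs, -0.0113 to 0.471 with a pig left out).

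Pigs of equal number correlated at 0.0474 to 0.396 in their deviations. Of the 8 low-RFI pigs, 5 correlated best with the high-RFI pig of their own number. The main comparison did not pair the pigs, since the labels state no pairing, and whether the numbers pair them was not tested. A replicate block gave 4 probes. The use of each series alone, and the alternatives for the genes like HSD3B1, were chosen after seeing the data. Under normexp the likeness to HSD3B1 fell to 0.515 for PARPBP, 0.68 for NCR3 and 0.507 for APOA1. The 2 SRD5A2 probes lay at background, so no difference could be seen.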

Other observations

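A probe that bears another name on the array, A_72_P173181, is described there as reading a transcript of a 3-beta-hydroxysteroid dehydrogenase, and it was noticed after the values had been seen. In the opposite orientation it matches the HSD3B1 probe A_72_P108371 at 43 of 44 bases. The capitals mark the longest exact run, 23 bases.
A_72_P173181: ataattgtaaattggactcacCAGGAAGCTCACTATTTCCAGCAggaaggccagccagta

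This probe was well above background in 4 of 8 low-RFI and 1 of 8 high-RFI livers, too few to be tested. Its processed intensity was 4.39 at lowest, 10.8 at the median and 15.7 at highest in low-RFI livers, and 3.46, 6.42 and 23.0 in high-RFI livers. The brightest of all 16 was high-RFI pig 6, the pig that also stood apart on the HSD3B1 probe A_72_P197232. The array of that pig had the most spots well above background (35126) and the lowest 75th percentile (320) of the 16. The part of this in its values on dim probes was not tested. What the probe reads was not tested.

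Low-RFI pig 2 differed from its line in several members at once, with deviations from the line mean of -1.28 for HSD3B1, 0.96 for SULT1A1, 0.58 for SULT2A1 and -0.18 for HSD11B1 (log2).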
